A study of Nicotiana benthamiana with 28 samples.

Results

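The most abundant transcripts of Nicotiana benthamiana seedlings were taken as the genes with a TPM (a measure of relative transcript abundance) of at least 500 in both wild type mock libraries, ranked by their mean in those 2 libraries. This rule gave 143 of the 59814 genes listed, or 0.239% of them, below the limit of 200 that was set for the list. Another 65 genes reached 500 TPM in only 1 of the 2 libraries and were left out. Just inside the limit, one member stood at 555 and 505 TPM and another at 508 and 585 TPM, while just outside it one gene stood at 496 and 745 TPM and another at 496 and 562 TPM. The members were therefore chosen by their wild type mock values, and every comparison that uses those 2 libraries is given as a description only. All 143 members passed the later filter on low values, and none was listed at 0 in any library.

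A small number of genes usually supplies a large part of the messenger RNA of a leaf or seedling, because transcripts for photosynthesis, protein synthesis and basic metabolism are made in great number. XEG1 is a xyloglucan-degrading enzyme of the soybean pathogen Phytophthora sojae, and RXEG1 is the leucine-rich repeat receptor-like protein through which N. benthamiana recognises it. Receptor-like proteins lack a kinase domain of their own and act together with the receptor-like kinase SOBIR1. The deposited gene identifiers came without names, so no member is given a function here, the seedling tissue was not checked against marker genes, and the loss of RXEG1 or SOBIR1 was not checked in the knockouts.

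RNA-seq was done on whole seedlings 12 days old, 3 h after a mock treatment or treatment with XEG1 protein. The 28 libraries formed 14 groups of 2, made of 7 genotypes with each treatment. Besides wild type there were seedlings without RXEG1 (rxeg1), seedlings knocked out for sobir1/sobir1-like, and 4 lines in which a construct named pRXEG1:RXEG1syn was put into the rxeg1 background. The name of the construct points to the RXEG1 promoter. Its versions were ΔCT in 2 lines, Δ90-95/Q786AK791AΔCT in 1 line and Δ90-95/Δ786-792ΔCT in 1 line, called here ΔCT line 1, ΔCT line 2, the Q786AK791A line and the Δ786-792 line. All 4 construct lines carried the ΔCT change and the rxeg1 knockout. A line with the construct but without ΔCT was not analysed here, so no effect of the other changes can be separated from that of ΔCT or from the choice of a single line. The labels number the replicates but do not say that they came from separate cultures or plants, so each p-value reflects no more than the spread of the libraries at hand, which may be technical.

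TPM are corrected for gene length and were scaled to a sum of 1e+06 in each library, so the depth behind each value is unknown. Because that total is fixed, a lower TPM of one gene and a higher TPM of others cannot be told apart, and in bulk samples fewer cells of a type and less RNA per cell cannot be told apart either. Replicates of several groups differed in how many members reached 500 TPM. The counts in replicates 1 and 2 were 118 and 99, 121 and 112, and 112 and 101 in the mock groups of ΔCT line 1, ΔCT line 2 and the Q786AK791A line. They were 135 and 126 in the rxeg1 mock group and 135 and 119 in the XEG1-treated rxeg1 group, and these 4 libraries are the reference of every construct line. In the XEG1-treated Δ786-792 group they were 140 and 127. The 2 mock libraries of the Δ786-792 line differed in the member of rank 1, with 7088 and 1811 TPM.

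The 143 members ran from a mean of 5044 TPM at rank 1 to 513 TPM at rank 143 in wild type mock seedlings, with a median of 864 TPM. Of these, 8 members reached 3000 TPM, 18 reached 2000 TPM and 56 reached 1000 TPM. Together the members held 17.9% and 15.1% of all TPM in the 2 wild type mock libraries. The 10 members of highest rank alone held 3.90% and 3.16%, the 40 of ranks 11 to 50 held 6.56% and 5.45%, and the 93 from rank 51 on held 7.44% and 6.46%.

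Outside wild type, the members kept a share of 13.9% to 18.1% of TPM in the 24 libraries of the other 6 genotypes. The share was 16.5% ± 2.36 (SD, n = 2) in rxeg1 mock seedlings and 16.2% ± 2.37 (SD, n = 2) after XEG1. In sobir1/sobir1-like it was 17.2% ± 0.0846 and 16.7% ± 0.964 (SD, n = 2 each). In XEG1-treated wild type it was 11.7% and 11.6%, below every other library of the series, as the bars of TPM share show. The members were chosen for high wild type mock TPM, and rxeg1 mock lay near wild type mock on them (median log2 difference -0.04). A lower share in XEG1-treated wild type than in the other genotypes is therefore favoured by the choice. The p-value of the next comparison does not allow for this. The 2 XEG1-treated wild type libraries differed by -3.95 percentage points from the mean of the 12 XEG1-treated libraries of the other genotypes (exact two-sided permutation test over libraries, p = 0.011, the smallest p that 91 arrangements allow). Those 12 libraries lay between 13.9% and 17.8%. Without either of the wild type libraries, the difference was -4.04 or -3.86 points, and the exact p of 0.0769 was then the smallest possible.

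**Figure D1:**
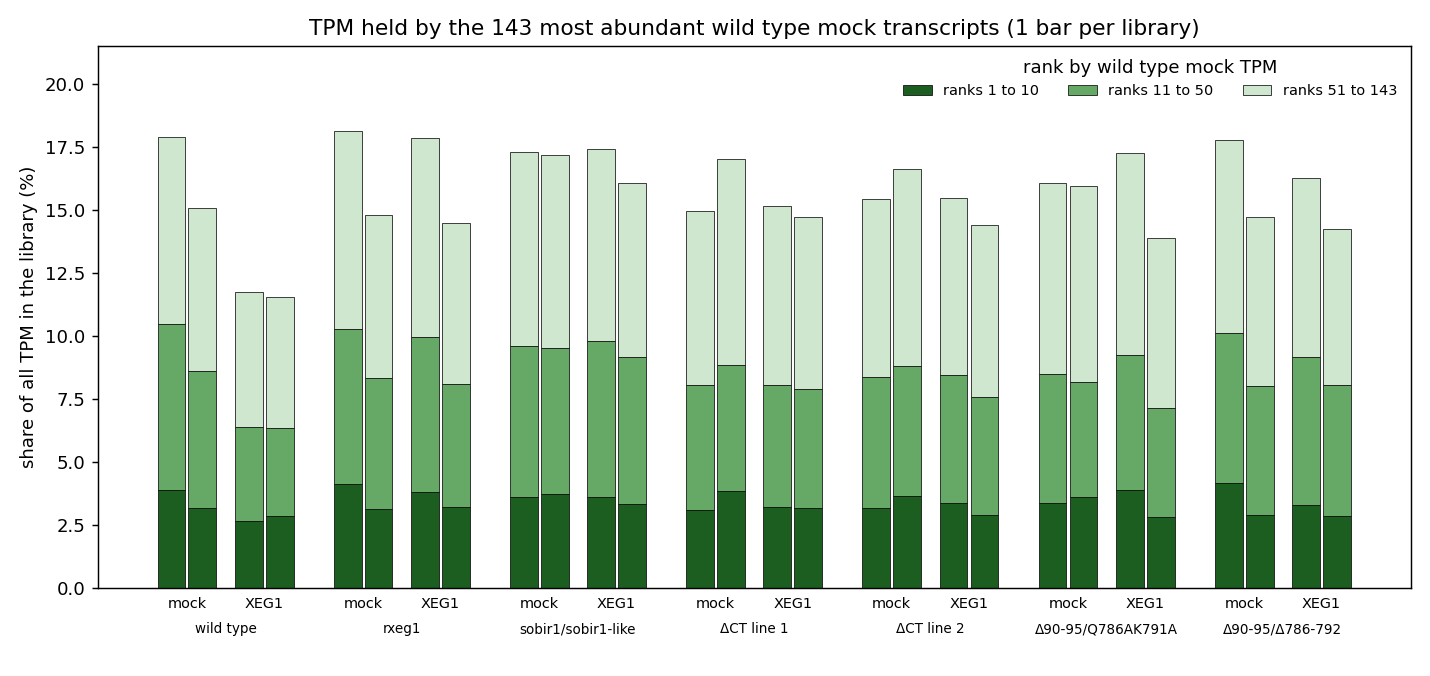
Share of all TPM (%, from 0) held by the 143 members in each of the 28 libraries, 1 bar per library (replicate 1 left, replicate 2 right in each group), split into ranks 1 to 10, 11 to 50 and 51 to 143. The 2 XEG1-treated wild type bars end at 11.7% and 11.6%, below all other bars, which end between 13.9% and 18.1%.

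Within the other 6 genotypes, the share after XEG1 differed by -0.73 percentage points from that after mock treatment, which did not pass the test (exact two-sided permutation test with labels exchanged within genotype, p = 0.184). This outcome depended on the setting, as the difference passed with a replicate block, given at the end. The labels do not say that same-numbered libraries are pairs. Between genotypes both treatments were pooled, 4 libraries against the 4 of rxeg1. The difference from rxeg1 was 0.68 points in sobir1/sobir1-like, -0.85 and -0.82 points in ΔCT lines 1 and 2, -0.52 points in the Q786AK791A line and -0.56 points in the Δ786-792 line. None passed (exact two-sided permutation tests, p between 0.429 and 0.686, each with a Benjamini-Hochberg adjusted p of 0.686 over the 5 comparisons), and the smallest p that 4 against 4 libraries allow is 0.0286. The sizes of these differences, and in the Q786AK791A and Δ786-792 lines their signs, depended on single libraries. Leaving out 1 library moved them to between 0.075 and 1.28 points in sobir1/sobir1-like, between -1.45 and -0.24 points in ΔCT line 1 and between -1.43 and -0.22 points in ΔCT line 2. In all 3, the lowest value came without replicate 2 of the XEG1-treated rxeg1 group and the highest without replicate 1 of the rxeg1 mock group. Without replicate 2 of their own mock group the differences were -1.37 points in ΔCT line 1 and -1.21 points in ΔCT line 2. Without replicate 1 of the rxeg1 mock group the difference became 0.0865 points in the Q786AK791A line and 0.0418 points in the Δ786-792 line, and without replicate 2 of the XEG1-treated Q786AK791A group it became 0.125 points in that line.

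Which genes were most abundant also depended on the group. The members filled 77 to 130 of the 143 highest places in the libraries of the other 6 genotypes, the lowest count being replicate 2 of the ΔCT line 1 mock group, and 64 and 57 of those places in XEG1-treated wild type. Between 99 and 140 members were still at 500 TPM or more in the libraries of the other genotypes, against 91 and 82 in XEG1-treated wild type. In all 28 libraries, 60 members stayed at 500 TPM or more. The member of rank 2 was the highest gene of the whole list in 23 of the 24 libraries outside wild type. In both XEG1-treated wild type libraries the highest gene was not a member.

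In wild type, XEG1 treatment went with lower TPM for most of the 143 members. Of these, 124 had a lower and 19 a higher mean TPM after XEG1 than after mock treatment, with a median ratio of 0.666. With median-ratio scaling 83 members had a lower and 60 a higher log2 value after XEG1, and the median log2 difference was -0.06 (0.03 over all tested genes). With TPM as deposited, the mean was at or under 0.5 of the mock value for 42 members and at or over 2 times for 2 members. It was within a factor of 1.2 either way for 27 members. On the log2 scale 44 of the 143 members lay beyond 1 unit either way, beside 23.6% of all tested genes. These counts are not given with scaling. The members that were lower lost 59514 TPM in sum, of which the 10 that lost most made up 30.6%, and those that were higher gained 11167 TPM. These figures use the libraries that chose the members and carry no test.

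The member of rank 1, Niben101Scf01084g03004, stood at 4933 and 5155 TPM in wild type mock seedlings and at 2470.2 and 2489.7 TPM after XEG1. The member of rank 3, Niben101Scf10575g02003, stood at 4320.3 and 3176 TPM in mock and at 432 and 356 TPM in treated libraries. For both, the 2 treated libraries lay below both mock libraries. The member of rank 4, Niben101Scf01991g05016, had 4036 and 3167 TPM in mock and 4052 and 4636 TPM in treated libraries. The member of rank 9, Niben101Scf01934g02004, had 2855 and 2555 TPM in mock and 3497 and 3988 TPM in treated libraries. For both, the 2 treated libraries lay above both mock libraries, for rank 4 by a margin far smaller than the gap between its mock replicates.

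The ratios in wild type differed between ranges of rank. The median ratio of treated to mock TPM was 0.958 over ranks 1 to 10, 0.654 over ranks 11 to 50 and 0.668 over ranks 51 to 143. Among the 10 highest members, rank 3 had a ratio of 0.105, rank 7 of 0.289, rank 10 of 0.489 and rank 1 of 0.492. The members of ranks 2, 5, 6 and 8 had ratios of 1.05, 0.97, 0.976 and 0.946. In the same model that serves for the tests below, 4 members were called higher and 69 lower after XEG1 in wild type, where 48.4% of all 36777 tested genes were called, 11.9% higher and 36.4% lower. With median-ratio scaling 11 members were called higher and 23 lower, beside 39.3% of all tested genes, 22.2% higher and 17.1% lower. Nothing is read from these counts. The median log2 difference was -0.57 over the members and -0.39 over all tested genes.

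The places that the members left were taken by other genes. In both XEG1-treated wild type libraries 204 genes reached 500 TPM, of which 81 were members and 123 were not. Those 123 held 1.73% and 1.66% of TPM in the wild type mock libraries and 12.1% and 13.2% after XEG1. Their median mock level was 81.3 TPM, and 42 of them were under 50 TPM there. These genes were picked by their treated values, so this is a description of both lists and no test.

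The difference between XEG1-treated wild type and the XEG1-treated knockouts does not use the values of the libraries that chose the members. Those libraries enter only the estimate of spread that all groups share. The choice still bears on the comparison, as both knockouts lay near wild type in mock seedlings (median log2 differences of the members -0.04 and -0.02). Values lower in XEG1-treated wild type are therefore favoured by the choice, so the larger number of lower calls is a description. The comparison asks how the members stood where the receptor or its partner kinase was present or missing. Against rxeg1, 84 of the 143 members (58.7%) passed, 9 higher and 75 lower in wild type, where 52.7% of all tested genes passed, 12.2% higher and 40.6% lower (limma, Benjamini-Hochberg adjusted p under 0.05 over 36777 genes). Against sobir1/sobir1-like, 85 members (59.4%) passed, 4 higher and 81 lower, where 49.3% of all tested genes passed, 12.1% higher and 37.2% lower. With TPM as deposited, the shares of members called were near those of all genes, with a larger part of lower calls. With median-ratio scaling, as given below, lower calls as a share of all members were no longer above those of all genes. Among the members called with scaling, lower calls still outnumbered higher ones, 21 to 16 and 23 to 14. Over all genes higher calls were then the more frequent. The 2 comparisons share the wild type libraries.

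The size of these differences depended on how libraries were scaled. The median log2 difference from rxeg1 was -0.63 over the members and -0.46 over all tested genes, and that from sobir1/sobir1-like was -0.68 and -0.39. Median-ratio scaling, which sets the typical gene level with the other libraries, moved the median of all genes by 0.48 and 0.43. The medians of the members then became -0.05 and -0.16 against 0.02 and 0.04 over all genes. With that scaling 37 members passed against rxeg1, 16 higher and 21 lower, beside 41.1% of all genes (23.2% higher and 17.9% lower). Against sobir1/sobir1-like also 37 passed, 14 higher and 23 lower, beside 39.9% of all genes (22.6% higher and 17.3% lower). Of the members called with TPM as deposited, 30 and 27 were among those called with scaling. With TPM as deposited, both counts fell without replicate 2 of XEG1-treated wild type and without replicate 1 of the XEG1-treated knockout. The share of all genes called is not given for these fits.

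**Figure D2:**
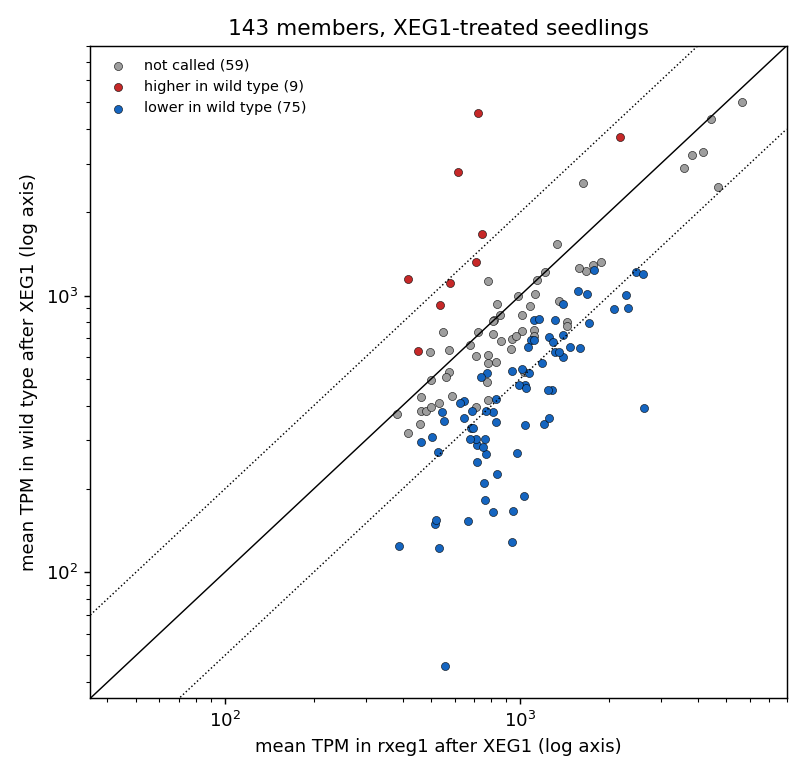
Mean TPM (n = 2, log axes) of each of the 143 members in XEG1-treated wild type (vertical) against XEG1-treated rxeg1 (horizontal), coloured by the limma call. The solid line marks equal TPM and the dotted lines a factor of 2 either way. The 75 members called lower in wild type lie below the solid line and the 9 called higher lie above it.

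Among the members lower in wild type, Niben101Scf07552g00006 (rank 66) changed most. It stood at 48.6 and 42.7 TPM in XEG1-treated wild type, at 663 and 450.4 TPM in XEG1-treated rxeg1 and at 931 and 1032 TPM in XEG1-treated sobir1/sobir1-like. The wild type libraries were thus far below all 4 knockout libraries, with log2 differences of -3.56 ± 0.34 (SE) from rxeg1 and -4.40 ± 0.34 (SE) from sobir1/sobir1-like (limma adjusted p = 9.58e-08 and 6.39e-09). Niben101Scf13429g02004 (rank 41) stood at 148 and 109 TPM in wild type, at 769 and 1116 TPM in rxeg1 and at 1367 and 1618 TPM in sobir1/sobir1-like. Its log2 differences were -2.86 ± 0.35 and -3.54 ± 0.35 (SE; limma adjusted p = 2.14e-06 and 1.59e-07), again with no overlap.

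Among the members higher in wild type, Niben101Scf01239g02002 (rank 76) stood out. It reached 4349 and 4809 TPM in XEG1-treated wild type, against 787 and 649 TPM in XEG1-treated rxeg1 and 848 and 899 TPM in XEG1-treated sobir1/sobir1-like. The log2 differences were 2.68 ± 0.22 and 2.39 ± 0.22 (SE; limma adjusted p = 1.65e-08 and 8.06e-08). Niben101Scf01084g01009 (rank 95) stood at 2415 and 3163 TPM in wild type, against 546 and 687 TPM in rxeg1 and 597 and 948 TPM in sobir1/sobir1-like. Its log2 differences were 2.17 ± 0.28 and 1.88 ± 0.28 (SE; limma adjusted p = 3.52e-06 and 2.00e-05). These were also the only 2 members whose mean TPM in wild type was at least 2 times higher after XEG1 than after mock treatment, with ratios of 5.33 and 3.84. All 4 of these members kept their direction and stayed past the threshold with median-ratio scaling, with log2 differences from rxeg1 of -2.98, -2.28, 3.26 and 2.76 in the order given here.

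In mock seedlings, the median log2 difference of the members from wild type was -0.04 in rxeg1 and -0.02 in sobir1/sobir1-like. Leaving out 1 library moved these medians to between -0.12 and 0.07 and between -0.07 and 0.05, so their sign depends on single libraries. These medians use the libraries that chose the members and carry no test.

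**Figure D3:**
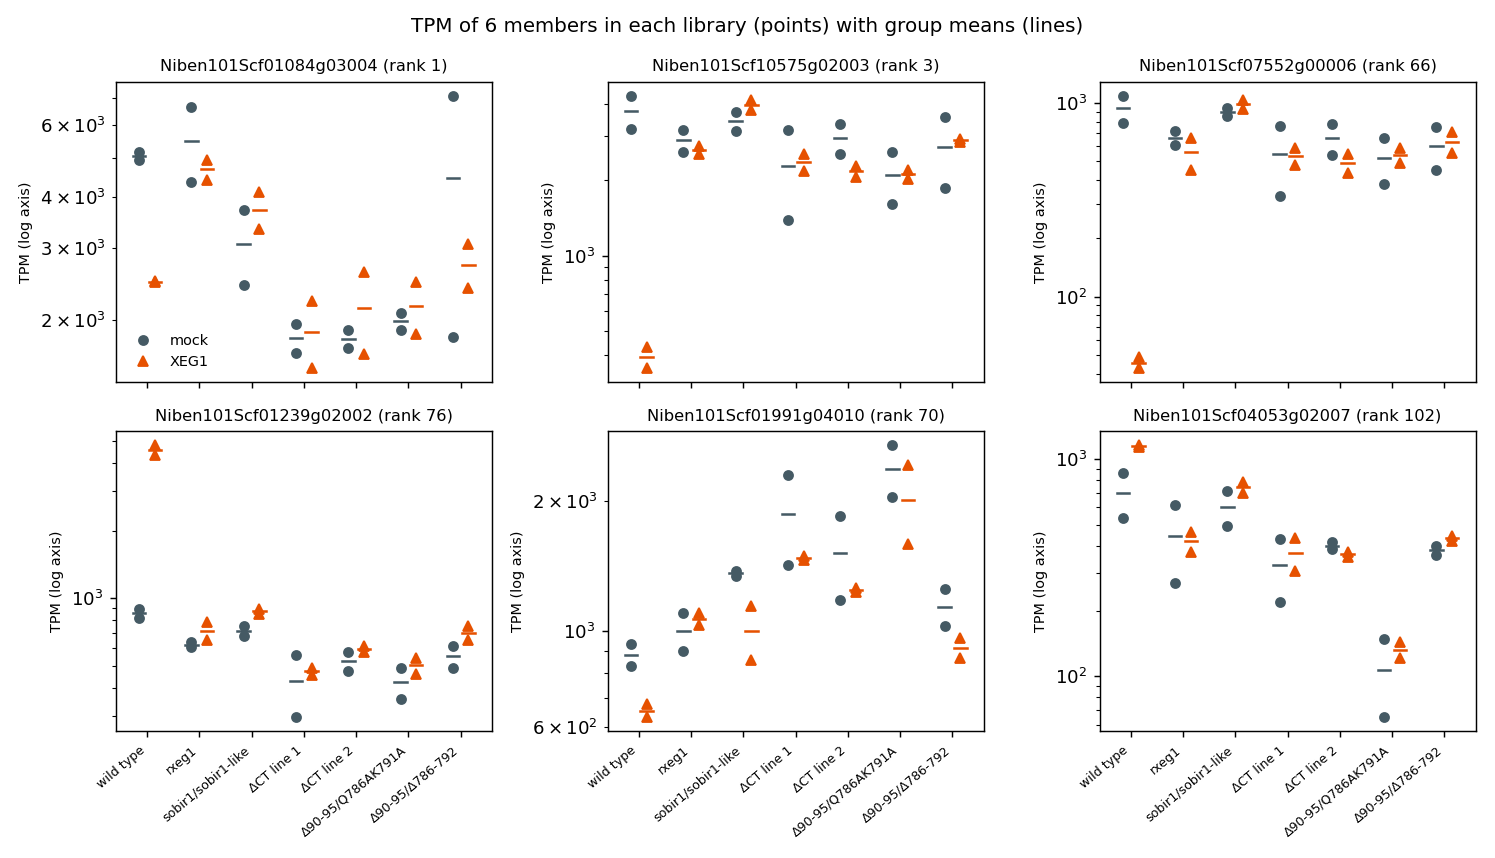
TPM (log axis, scale set for each panel) of 6 members in each library of the 7 genotypes, with circles for mock, triangles for XEG1 and lines for group means (n = 2). Rank 66 is at 48.6 and 42.7 TPM and rank 76 reaches 4349 and 4809 TPM in XEG1-treated wild type, while rank 1 is lower than in rxeg1 in every library of both ΔCT lines and the Q786AK791A line, and rank 102 in every library of the Q786AK791A line.

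In the 6 genotypes other than wild type, no member passed the test between XEG1 and mock. The 143 members had median log2 differences of -0.02 in rxeg1, 0.03 in sobir1/sobir1-like, 0.02 and -0.02 in ΔCT lines 1 and 2, 0.01 in the Q786AK791A line and -0.07 in the Δ786-792 line. The single differences lay between -0.74 and 1.00 with a median SE of 0.25, so a change of about that size in a member could have been missed. By limma 0 members were called in each. At an unadjusted p under 0.05 there were 0, 1, 0, 1, 2 and 1 of the 143 members in that order. Beside these stood 254, 558, 553, 1500, 1290 and 713 of the 36777 tested genes. Of all tested genes 0.0625% were called in ΔCT line 2 and 0 in each of the other 5 genotypes. Fitting the groups of ΔCT line 2 alone gave 1 called member. The share of all tested genes called is not given for that fit, so this call is not read as particular to the members.

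The member that came nearest in ΔCT line 2 and in the Q786AK791A line was rank 95, the one that was high in XEG1-treated wild type. In ΔCT line 2 it stood at 291 and 275 TPM after mock and 494 and 588 TPM after XEG1, a log2 difference of 0.93 ± 0.28 (SE; limma adjusted p = 0.419). In the Q786AK791A line it stood at 319 and 247 TPM after mock and 536 and 525 TPM after XEG1, a log2 difference of 0.91 ± 0.28 (SE; limma adjusted p = 0.601). In both lines the treated libraries lay above the mock libraries, but neither difference passed over all genes. Without replicate 2 of the mock group they were 0.89 and 0.73. In the Δ786-792 line the largest difference, 1.00 ± 0.46 (SE), belonged to rank 27, whose mock libraries at 478 and 1349 TPM were far apart and whose treated libraries stood at 1557 and 1657 TPM. It was 0.25 without the lower and 1.75 without the higher of these mock libraries.

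**Figure D4:**
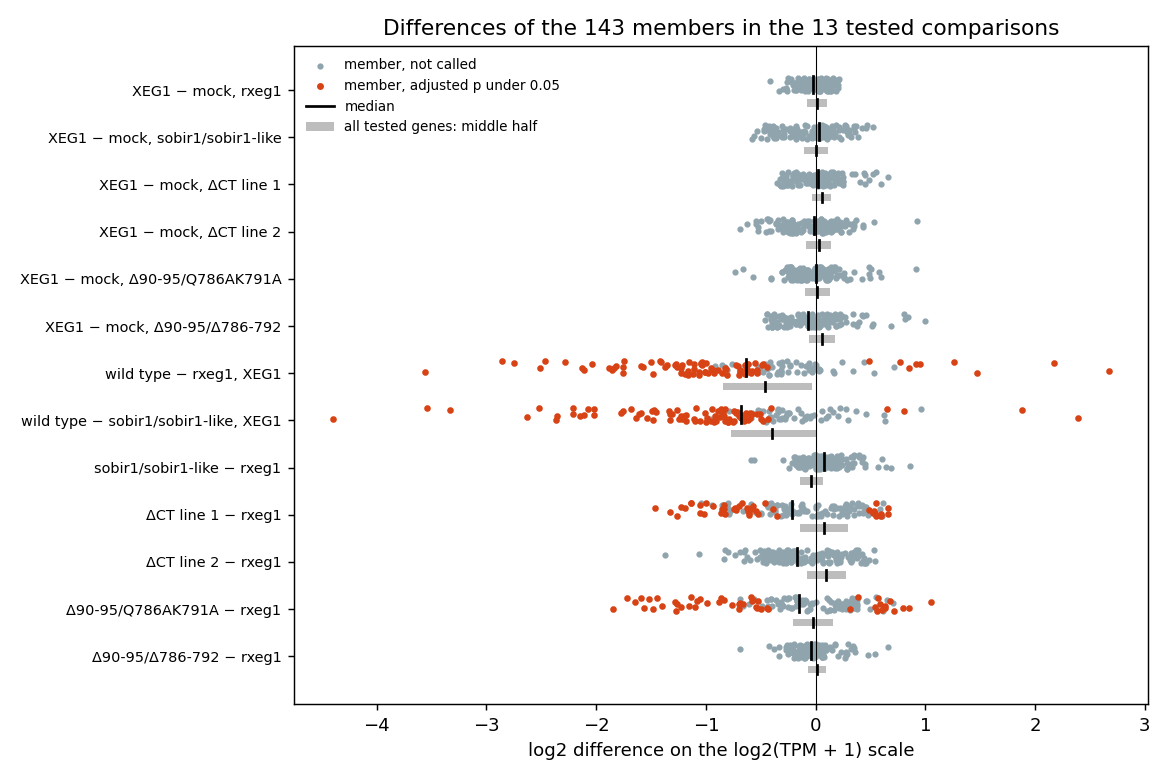
Log2 differences on the log2(TPM + 1) scale of the 143 members in each of the 13 tested comparisons, 1 point per member, with limma calls in orange and the median of the members as a black line. Under each row, a grey bar gives the interquartile range of all 36777 tested genes, and the black line across that bar their median. Calls appear in 4 comparisons, both of XEG1-treated wild type with a knockout and those of ΔCT line 1 and the Q786AK791A line with rxeg1.

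With both treatments averaged, 2 of the 4 construct lines held members that differed from rxeg1, the background they were made in. In ΔCT line 1, 43 members passed, 10 higher and 33 lower, where 8.35% of all tested genes passed, 3.9% higher and 4.45% lower. In the Q786AK791A line, 51 members passed, 15 higher and 36 lower, where 9.35% of all tested genes passed, 3.34% higher and 6.01% lower. As shares of the members these were 30.1% and 35.7%. No member passed in ΔCT line 2, the Δ786-792 line or sobir1/sobir1-like (limma), where 0.0544%, 0.00544% and 0.0571% of all tested genes passed. At an unadjusted p under 0.05 there were 49, 8 and 10 of the 143 members in that order. Beside these stood 5873, 1032 and 1458 of the 36777 tested genes. The construct lines share the rxeg1 libraries, and the differences between lines were not tested.

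Calls among the 50 highest members were all lower. Of these 50, 15 were called lower in ΔCT line 1 and 19 in the Q786AK791A line, none was called higher in either, and the rest were not called. The median log2 difference was -0.04 and -0.08 over ranks 1 to 10, -0.37 and -0.24 over ranks 11 to 50, and -0.13 and -0.10 from rank 51 on. The higher calls, 10 and 15, lay between ranks 53 and 135. The median log2 difference from rxeg1 was -0.22 over the members of ΔCT line 1 and 0.08 over all tested genes, and -0.15 and -0.03 in the Q786AK791A line. In ΔCT line 2 the medians were -0.17 and 0.09, on the same side as in ΔCT line 1 although no member passed. Members and ranks were chosen by high wild type mock TPM, and rxeg1 mock lay near wild type mock (median log2 difference -0.04). Values lower than in rxeg1 are therefore favoured by the choice, so the larger number of lower calls and its tie to rank are descriptions. With genes high in the other mock libraries, given below, the differences in share reversed, and the cause was not tested.

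These counts rested on single libraries and on the shared estimate of spread. For fits without a library or with only the compared groups, the share of all tested genes called is not given here. Those changes in count are therefore not read as particular to the members. For ΔCT line 1 the count was 5 without replicate 2 of its mock group, 10 and 18 without replicate 1 or 2 of its XEG1 group, and 21 and 24 without replicate 1 of the rxeg1 mock or XEG1 group. With only the compared groups in the fit it was 1. With median-ratio scaling 24 members passed in ΔCT line 1, 0 higher and 24 lower, beside 9.63% of all genes (3.78% higher and 5.85% lower), so its higher calls were lost. For the Q786AK791A line the count was 27 without replicate 2 of its mock group, 33 without replicate 1 of its XEG1 group, 9 with only the compared groups, and 28 with scaling, 6 higher and 22 lower, beside 9.36% of all genes.

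The member of rank 1, Niben101Scf01084g03004, had the lowest log2 difference from rxeg1 of all members in ΔCT line 1. It stood at 6653 and 4355 TPM after mock and 4939.7 and 4416 TPM after XEG1 in rxeg1. In ΔCT line 1 it stood at 1659 and 1955 TPM after mock and 1522 and 2219 TPM after XEG1. All 4 libraries of the line lay below all 4 of rxeg1, and the log2 difference was -1.46 ± 0.29 (SE; limma adjusted p = 0.00765). Side by side, the difference from rxeg1 stood at -1.38 ± 0.29 in ΔCT line 2 (adjusted p = 0.0668), -1.28 ± 0.29 in the Q786AK791A line (adjusted p = 0.0106) and -0.69 ± 0.29 in the Δ786-792 line (adjusted p = 1.0), by the same limma fit. Without the mock library at 7088 TPM the last of these was -1.18 (adjusted p = 0.0773), and without its partner at 1811 TPM it was -0.19. In ΔCT line 1 the difference was -1.52 without replicate 2 of its mock group (adjusted p = 0.0436).

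Niben101Scf03694g02003 (rank 12) stood at 2831 and 2175 TPM after mock and 3247 and 1694 TPM after XEG1 in rxeg1. In ΔCT line 1 it stood at 1235 and 731 TPM after mock and 973 and 961 TPM after XEG1. The groups did not overlap, and the log2 difference was -1.33 ± 0.22 (SE; limma adjusted p = 0.00328). Without replicate 2 of the mock group of that line it was -1.14 (limma adjusted p = 0.0314). With only the compared groups in the fit, the adjusted p was 0.0846 for this member and 0.0556 for rank 1.

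In the Q786AK791A line the largest lower difference was that of Niben101Scf04053g02007 (rank 102). It stood at 148 and 64.8 TPM after mock and 144 and 121 TPM after XEG1, against 268 and 615 TPM and 373 and 463 TPM in rxeg1. Every library of the line lay below every rxeg1 library, with a log2 difference of -1.84 ± 0.27 (SE; limma adjusted p = 0.00104, and 0.0525 with only the compared groups). The same member stood between 219 and 432 TPM in ΔCT line 1, and its log2 differences from rxeg1 were -0.30, -0.11 and -0.02 in ΔCT line 1, ΔCT line 2 and the Δ786-792 line, none of them past the threshold. Niben101Scf03038g02002 (rank 13) stood at 622 and 478 TPM after mock and 546 and 377 TPM after XEG1 in the Q786AK791A line, against 1885 and 1486 TPM and 2136 and 1203 TPM in rxeg1. The groups did not overlap, and the log2 difference was -1.72 ± 0.25 (SE; limma adjusted p = 0.000919).

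The 2 members with the largest higher differences in both construct lines lay on the same scaffold. Niben101Scf01991g04010 (rank 70) stood at 1099.8 and 901 TPM after mock and 1102 and 1032 TPM after XEG1 in rxeg1. It stood at 1421 and 2297 TPM and 1488 and 1461 TPM in ΔCT line 1, and at 2036 and 2689 TPM and 2416 and 1590.0 TPM in the Q786AK791A line. Neither line overlapped with rxeg1, with log2 differences of 0.66 ± 0.17 and 1.05 ± 0.17 (SE; limma adjusted p = 0.0248 and 0.00181). Niben101Scf01991g05012 (rank 89) had log2 differences of 0.66 ± 0.19 and 0.85 ± 0.19 (SE; limma adjusted p = 0.0411 and 0.00998). In ΔCT line 1 both lost the call with median-ratio scaling (adjusted p = 0.142 and 0.175), with only the compared groups (0.131 and 0.160) and without replicate 2 of the mock group of that line (0.161 and 0.228). Of the 13 settings tried there, rank 70 lost the call in 7 and rank 89 in 10. In the Q786AK791A line rank 89 lost it with only the compared groups (0.0832) and without replicate 2 of its mock group (0.0578), and rank 70 kept it.

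**Figure D5:**
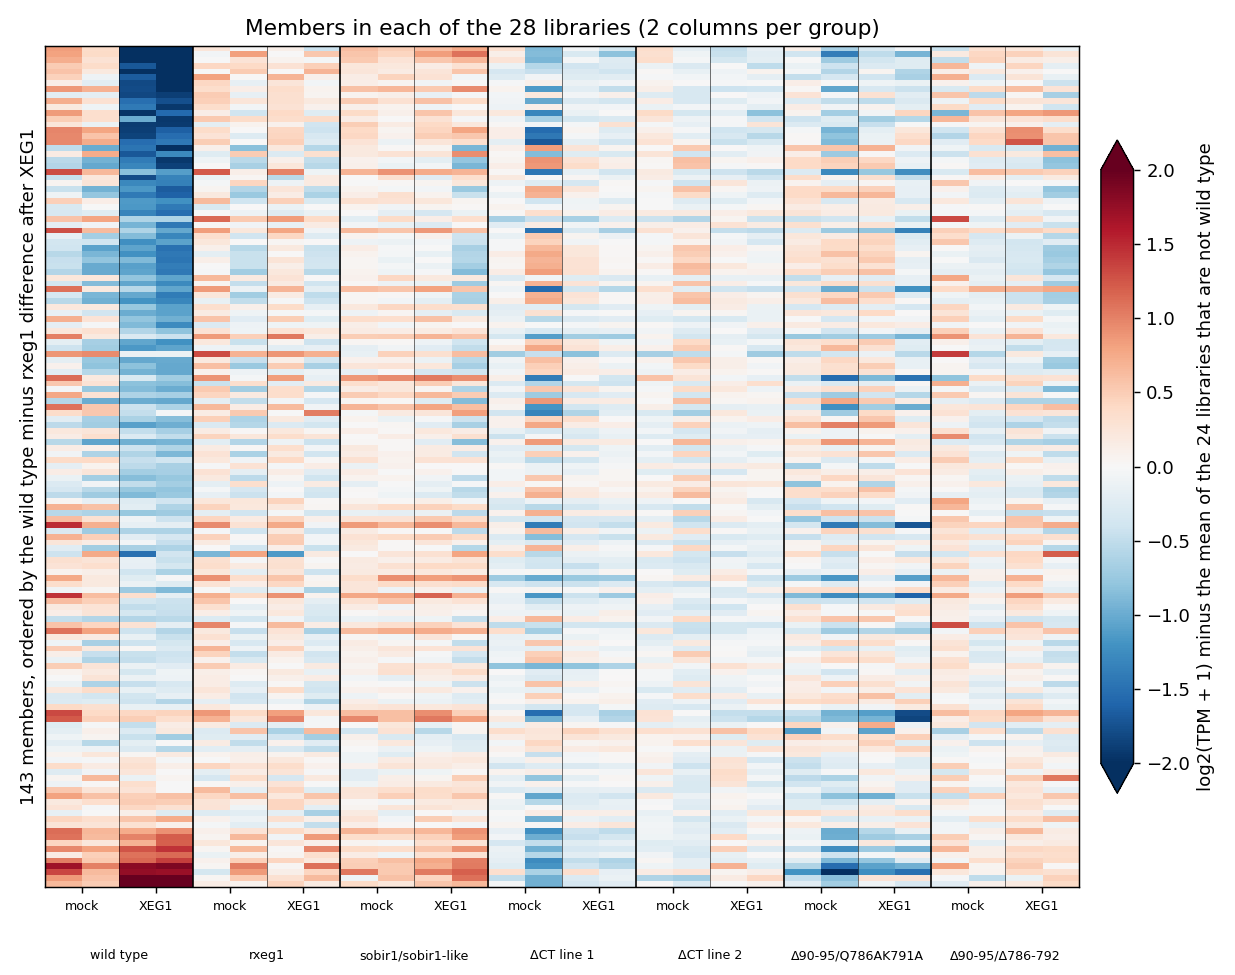
Log2(TPM + 1) of the 143 members (rows) in the 28 libraries (columns, 2 per group), each row relative to its mean over the 24 libraries that are not wild type, and rows ordered by the wild type minus rxeg1 difference after XEG1, so that the pattern of the XEG1-treated wild type columns follows from the order. Colours end at 2 log2 units either way, and blocks of lower values also appear in replicate 2 of the ΔCT line 1 and Q786AK791A mock groups.

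Many members that lie on the same scaffold of the genome varied together over the libraries. The 143 members lay on 128 scaffolds or contigs, and 11 of these held more than 1 member, 26 members in all. Scaffold Niben101Scf01991 held 5, of ranks 2, 4, 70, 89 and 115, and these had between 0.981% and 2.15% of all TPM in the 28 libraries. Over the 24 libraries that are not wild type, the 22 pairs of members on a shared scaffold had a median Pearson r of 0.86 (from -0.33 to 0.99), beside 0.12 over all 10153 pairs. The pairs share libraries and their total, and the handling of reads that match more than 1 copy of a duplicated gene is unknown here. The pairs are therefore not independent and their correlation is a description.

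Members on the same scaffold could differ in their ratio of treated to mock TPM in wild type. On scaffold Niben101Scf01991 the ratio of XEG1 to mock TPM in wild type ran from 0.742 for rank 70 to 1.21 for rank 4. On scaffold Niben101Scf01084, rank 95 had a ratio of 3.84, while rank 69 had 0.644 and rank 1 had 0.492. The members of ranks 41 and 86, also on a shared scaffold, were both lower after XEG1, with ratios of 0.11 and 0.155.

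Across the 12 groups that are not wild type, the ratio of a member's highest to its lowest group mean had a median of 1.73 and ran from 1.22 to 6.99. It was under 2 for 96 members (67.1%), beside 75.1% of the 36583 tested genes with no group at 0, whose median ratio was 1.60. The 6 members with a ratio of 4 or more, ranks 13, 20, 26, 61, 93 and 102, all had their lowest mean in a group of the Q786AK791A line. The steadiest member, rank 107, ran only from 670.0 TPM in rxeg1 mock to 818 TPM in the XEG1-treated Q786AK791A group. The spread between replicates was also a little wider for members, with a median SD of 0.27 on the log2 scale beside 0.24 over all tested genes.

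Among the 13 groups other than wild type mock, XEG1-treated wild type held the lowest mean for 88 members. It held the highest mean for 15 members, and XEG1-treated sobir1/sobir1-like held it for 33. These counts use TPM as deposited, with which 36.4% of all tested genes were called lower after XEG1 in wild type. The same counts over all tested genes or with median-ratio scaling are not given here. They are therefore not read as particular to the members. Before any XEG1 treatment, the median log2 difference of the members from wild type mock was -0.08 in the Δ786-792 line, -0.27 in the Q786AK791A line, and -0.34 in both ΔCT lines. As the members were chosen for high wild type mock values, a lower value in another group is favoured by the choice, and these 4 medians carry no test.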

How the data were processed

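RNA of 12-day-old seedlings was made into libraries from 1.0 µg of total RNA with an MGIEasy kit, per the labels' protocols, and the submitters' processing notes name HISAT2 2.0.4. Which genome build, annotation and TPM tool were used is not stated in the labels. Values are TPM as the authors deposited them, in a separate list for each library; each sums to 1e+06 and gives no depth. Titles call the control EV where the treatment label says mock, and both were taken as 1 control. Differences were tested with limma 3.58.1 in R 4.3.3 (trend, robust shrinkage) on log2(TPM + 1), a scale that understates changes of low genes, for 36777 genes whose mean TPM was at least 1. A single fit of 14 group means had 14 residual degrees of freedom, with Benjamini-Hochberg adjustment over all tested genes per comparison and calls under 0.05. TPM shares were compared by exact permutation tests over libraries. Scripts were tested on simulated data. The members, comparisons and lists were chosen with earlier results of these data known.

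The members named by identifier were, per tested comparison, at most 2 called members each way with the largest difference and no overlap of libraries, and in wild type the 2 highest-ranked members above and below both mock libraries. Rank 2 and others given by rank were chosen after their values were seen. Lists by function were not used because identifiers have no names. Alternatives were a pseudocount of 0.1, no filter, only the compared groups, a replicate block, median-ratio scaling, the highest 50 members, another list of 200 genes, shares without the 10 most abundant genes of each library, and leaving out each library.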

Additional observations from a re-analysis of the deposited data

How the results depend on the processing

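A pseudocount of 0.1, no filter and shares without the 10 most abundant genes changed no direction and moved no count by over 1.5 times, though rank 89 lost its call in ΔCT line 1 with no filter (limma adjusted p = 0.0555). Among the 176 settings tried for the named members, 154 kept the call, 22 lost it and 0 reversed. With median-ratio scaling, 37 members passed against rxeg1 and 37 against sobir1/sobir1-like after XEG1, 24 in ΔCT line 1 and 28 in the Q786AK791A line. Beside these stood 41.1%, 39.9%, 9.63% and 9.36% of all tested genes. The median log2 difference from wild type mock became -0.057 in XEG1-treated wild type, -0.47 in ΔCT line 1 and -0.50 in ΔCT line 2. Among the highest 50 members, which can give fewer calls, the 4 counts with TPM as deposited were 26, 27, 15 and 19, beside 52.7%, 49.3%, 8.35% and 9.35% of all tested genes. The medians of these 50 from wild type mock were -0.52, -0.48 and -0.42 in ΔCT line 1, ΔCT line 2 and the Q786AK791A line. With only the compared groups, and fewer degrees of freedom, 1 member passed in ΔCT line 2 after XEG1, 1 in ΔCT line 1 and 9 in the Q786AK791A line. Shares of all genes are not given for these fits. With the 200 genes highest in the other mock libraries, the difference in share from rxeg1 reversed to 0.72, 0.29 and 1.05 points in ΔCT line 1, ΔCT line 2 and the Q786AK791A line; the cause was not tested.

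Leaving out each library gave 51 to 87 and 52 to 75 members against rxeg1 and sobir1/sobir1-like after XEG1, 5 to 62 in ΔCT line 1 and 27 to 43 in the Q786AK791A line. The share differences ran from -4.11 to -3.75 points for XEG1-treated wild type, from -1.12 to 0.125 in the Q786AK791A line and from -1.24 to 0.0418 in the Δ786-792 line. Medians from wild type mock ran from -0.71 to -0.47 in XEG1-treated wild type, -0.41 to -0.19 in ΔCT line 2 and -0.18 to 0.10 in the Δ786-792 line. Where 1 library was left in a group, its spread was taken from the other groups. Shares of all tested genes called are not given for the fits without a library, so changes in these counts are not read as particular to the members.

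Same-numbered libraries of a genotype deviated together with r from -0.02 to 0.73 over all tested genes, so the numbers were not taken as pairs. With the replicate block, 65 members passed in ΔCT line 1 and 5 in ΔCT line 2. The share of all tested genes called is not given for that fit, so these counts are not read as particular to the members. With the block, the XEG1 minus mock difference in share over 6 genotypes, -0.73 points, had an exact permutation p of 0.0444. TPM keep no depth, so no limit of detection can be given.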
